A study of Oryctolagus cuniculus with 4 samples.

Results

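A set of 9 genes, most of them encoding extracellular matrix proteins, was examined in single cells of the rabbit bladder wall: CILP, COCH, ASPN, FNDC1, ABI3BP, HAPLN1, CHI3L1, ITGBL1 and MOXD1. They are 9 of the 18475 genes in the feature lists, were found there by their symbols, and were chosen by their levels in fibroblasts and endothelium of the injured against the normal samples used here. Their differences between the groups are therefore a description and carry no test. The extracellular matrix is the protein and polysaccharide mesh laid down largely by fibroblasts, and it gives the bladder lamina propria its strength and stretch. After a mucosal wound, fibroblasts fill the defect with provisional matrix rich in hyaluronan, fibronectin and versican, which is later replaced by collagen. Secreted glycoproteins such as CILP and ASPN bind collagen or growth factors of the TGF-beta family, and they are known best from cartilage, tendon and bone.

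The study set bladder mucosa under homeostasis (normal 1 and normal 2) against mucosa regrowing in a wound (injured 1 and injured 2). The wound was a resection of the full thickness of the mucosa from the posterior wall of adult New Zealand rabbits, and it was sampled on day 10, when new urothelium had just closed over it. The labels name no agent, transgene or deletion in either group, and each of the 4 libraries is labelled as a sample of its own. The labels call the tissue urothelium, but only 1532 of the 21945 cells kept after filtering carried epithelial markers, while 8898 were fibroblast-like, 5479 endothelial-like and 2111 smooth muscle and pericyte-like.

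Cells kept per library ranged from 4308 in normal 1 to 6081 in injured 1, and the deposited barcodes held between 28745017 and 47881609 unique molecular identifiers (UMIs, one per captured transcript) per library. Normal 1 was the shallowest library, with a median of 4814 UMIs per kept cell against 6755 to 7186 in the other 3. Any pair of libraries shared between 8 and 13 cell barcodes. Levels below are CPM: the UMIs of a gene summed over all cells of one class in one sample, scaled to 1000000 UMIs of that sum. They are compared for one gene across samples and classes, not between genes. The fibroblast-like class had all 6 of its measured markers above 1 CPM in every library.

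In fibroblast-like cells, ITGBL1, MOXD1, CILP, COCH, CHI3L1 and ASPN had higher levels in both injured samples than in either normal sample, by mean CPM ratios of 3.90 (ASPN) to 22.4 (COCH). In endothelial-like cells HAPLN1 was higher in both injured samples than in the normal ones, at 25.1 and 26.7 against 0.809 and 1.07 CPM. Of 5 fibroblast clusters, FNDC1 was higher in both injured samples in 1, lower in both in 2, and overlapped between the groups in 2. By edgeR's quasi-likelihood test on summed UMI counts, 0 of 8760 genes tested in fibroblast-like cells (0%) passed an adjusted p of 0.05 in either direction, while 964 had an unadjusted p under 0.05 and DESeq2 called 273. In endothelial-like cells 0 of 7578 genes (0%) passed by edgeR, with 521 at an unadjusted p under 0.05 and 57 called by DESeq2. In smooth muscle and pericyte-like cells 0 of 6491 genes (0%) passed, with 626 at an unadjusted p under 0.05 and 72 called by DESeq2. With 2 samples against 2, an exact two-sided permutation test of a single value cannot go below p = 0.333. What follows is thus the level in each sample, and whether both injured samples lay above both normal samples. That order held for 16% of all genes tested in fibroblast-like cells, 24.1% in endothelial-like cells and 20.1% in smooth muscle and pericyte-like cells. It held for 7 of the 9 members in fibroblast-like cells, the contrast on which they were chosen, so nothing is read from that count.

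**Figure D1:**
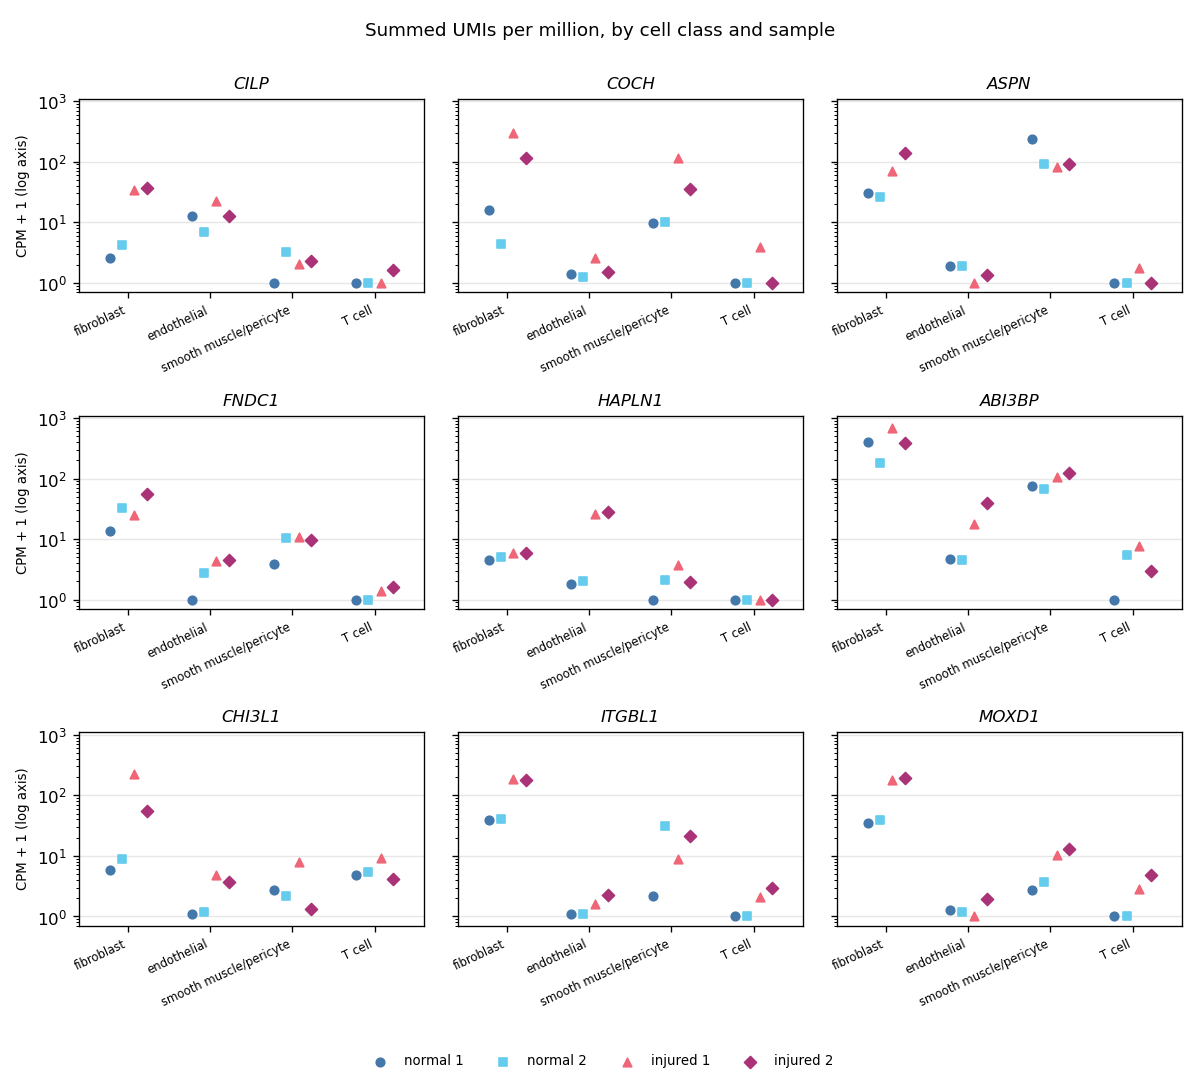
CPM plus 1 on a log axis for each of the 9 genes, with 1 point per sample in fibroblast-like, endothelial-like, smooth muscle and pericyte-like and T cell-like cells. ITGBL1 and MOXD1 separate the groups in fibroblasts, HAPLN1 separates them in endothelium, and T cells show the level found in cells not known to make matrix.

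ITGBL1 and MOXD1 had close values within each group and were higher in both injured samples. ITGBL1 encodes a secreted protein of EGF-like repeats related to the extracellular part of integrin beta chains. Its level in fibroblast-like cells was 38.6 CPM in normal 1 and 39.3 in normal 2, against 182 in injured 1 and 175 in injured 2. The difference on the log2(CPM + 10) scale was 1.95 ± 0.03 (SE, n = 2 per group), a 4.59-fold ratio of the mean CPM. MOXD1 encodes a copper-dependent monooxygenase of the endoplasmic reticulum related to dopamine beta-hydroxylase. It stood at 34.2 and 37.9 CPM in the normal samples and at 177 and 191 CPM in the injured ones, a difference of 2.08 ± 0.08 (SE, n = 2 per group) and a ratio of 5.11. For both genes the groups did not overlap. Both were chosen on this contrast, so the size of the gap against the spread within a group is a description only.

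CILP, a matrix glycoprotein of the cartilage intermediate layer that binds TGF-beta1 and antagonises its signalling, was nearly absent from normal fibroblasts. It had 1.56 CPM in normal 1 (10 UMIs) and 3.29 in normal 2 (77 UMIs), against 32.6 in injured 1 (541 UMIs) and 36.1 in injured 2 (764 UMIs). The difference was 1.84 ± 0.12 (SE, n = 2 per group) on the log2(CPM + 10) scale.

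COCH and CHI3L1 had higher levels in both injured samples, but those 2 samples differed widely from each other. COCH encodes cochlin, a secreted protein with von Willebrand factor A domains that is abundant in the inner ear. Its fibroblast level was 15.1 CPM in normal 1, 3.33 in normal 2, 299 in injured 1 and 115 in injured 2. CHI3L1, a chitinase-like glycoprotein that binds chitin without cutting it and is secreted by neutrophils, macrophages and stressed connective tissue cells, stood at 4.84, 7.91, 227 and 55.1 CPM in the same order. Injured 1 was the highest sample for both genes. The differences were 3.43 ± 0.80 for COCH and 2.93 ± 0.94 for CHI3L1 (log2(CPM + 10), SE, n = 2 per group).

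ASPN encodes asporin, a small leucine-rich proteoglycan that binds collagen and TGF-beta1. In fibroblast-like cells it had 29.4 and 24.7 CPM in the normal samples against 70.1 and 140 in the injured ones, with a difference of 1.57 ± 0.46 (log2(CPM + 10), SE, n = 2 per group). Here injured 2 was the higher of the pair, the reverse of COCH and CHI3L1.

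ABI3BP and FNDC1, which both carry fibronectin type III domains, overlapped between groups in fibroblast-like cells. ABI3BP, a matrix protein that also binds the adaptor ABI3, stood at 392.5 CPM in normal 1, 177 in normal 2, 682 in injured 1 and 392.1 in injured 2, so normal 1 and injured 2 were level. FNDC1 stood at 12.7, 31.6, 23.7 and 55.2 CPM in that order. Scaling the libraries by TMM factors instead of totals lifted ABI3BP of injured 2 above normal 1. With TMM 8 of 9 members had both injured samples above both normal ones. The share of all genes with that order is given for scaling by totals only (16%), so nothing is read from that count. TMM moved the median log2 fold change of all genes in these cells from -0.11 to 0.00.

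HAPLN1 encodes link protein, which fastens hyaluronan to aggrecan and versican. Its fibroblast values were low and close together, at 3.44, 4.10, 4.95 and 4.91 CPM in normal 1, normal 2, injured 1 and injured 2. The groups did not overlap, and the difference was 0.12 ± 0.04 (log2(CPM + 10), SE, n = 2 per group), a 1.31-fold ratio of the mean CPM. At levels this far below the pseudocount of 10, that scale understates the difference.

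The fibroblast-like class held 5 clusters, and the members were spread unevenly over them. The clusters are named here by the leading gene of each: MFAP5 (2233 cells), EREG (1832), PTPRQ (1766), COCH (1704) and LVRN (1363). Since the clusters were built from all variable genes, with COCH and CHI3L1 among the leading genes of one and ITGBL1 among those of another, the contrast between clusters is a description. The makeup of the class also moved between samples. The MFAP5-led cluster took 35.6% and 29.8% of fibroblast-like cells in injured 1 and 2 against 20.9% and 16.6% in normal 1 and 2, and the PTPRQ-led cluster took 8.52% and 12.5% against 21.5% and 31.7%.

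**Figure D2:**
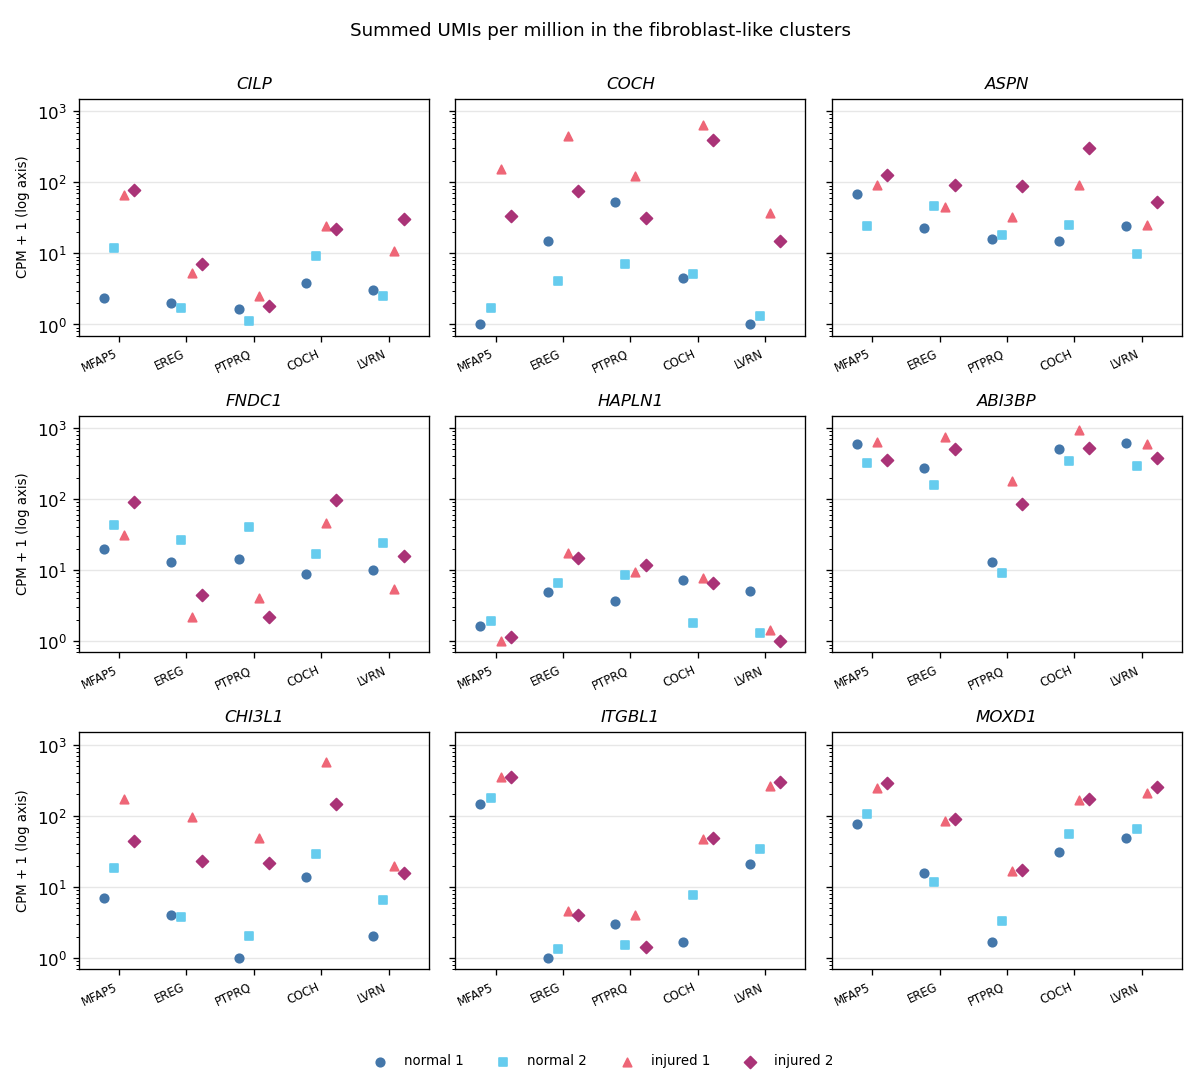
CPM plus 1 on a log axis for each member in the 5 fibroblast-like clusters, named by their leading genes, with 1 point per sample. CILP, CHI3L1 and MOXD1 have both injured samples above both normal samples in 5 of 5 clusters. CILP has at most 2 UMIs per sample in the PTPRQ-led one. FNDC1 lies higher in the COCH-led cluster and lower in the EREG-led and PTPRQ-led clusters of the injured samples.

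Within clusters, CILP, CHI3L1 and MOXD1 had both injured samples above both normal samples in 5 of 5 clusters, and COCH, ASPN and ITGBL1 in 4 of 5. The share of all genes with this order inside each cluster was not computed, so nothing is read from these counts. CILP in the PTPRQ-led cluster had at most 2 UMIs per sample. ITGBL1 in the EREG-led cluster had 0 and 2 UMIs in normal 1 and 2 and 9 and 11 in injured 1 and 2. MOXD1 in the MFAP5-led cluster, where it was highest, stood at 75.4 and 106 CPM in normal 1 and 2 and at 244 and 287 CPM in injured 1 and 2. In the LVRN-led cluster it stood at 47.9, 64.6, 212 and 252 CPM in the same order. The higher level of MOXD1 in injured fibroblasts was thus present inside each cluster as well as in the sum.

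ITGBL1 was more restricted. It was high in the MFAP5-led cluster (147, 180, 351 and 348 CPM in normal 1, normal 2, injured 1 and injured 2). In the LVRN-led cluster it had 20.4 and 33.7 CPM in the normal samples and 258 and 296 CPM in the injured ones. In the PTPRQ-led cluster it was at most 3.01 CPM in any sample. Fibroblasts of the LVRN-led cluster therefore came near the ITGBL1 level of MFAP5-led cells in the injured samples and not in the normal ones.

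CILP was concentrated in the MFAP5-led cluster, with 1.32 and 10.7 CPM in the normal samples and 64.3 and 75.7 CPM in the injured ones. In the PTPRQ-led cluster no sample had more than 2 UMIs of CILP, so its order there says nothing.

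COCH in its own cluster had 5 UMIs in normal 1 and 10 in normal 2, which is 3.52 and 4.16 CPM, against 2641 and 1804 UMIs, or 638 and 394 CPM, in injured 1 and 2. In the MFAP5-led cluster it had 0 and 3 UMIs in the normal samples against 969 and 237 in the injured ones. The exception was the PTPRQ-led cluster, where normal 1 had 52.6 CPM, normal 2 had 6.02, injured 1 had 120 and injured 2 had 29.96, so the groups overlapped. Of the 97 COCH UMIs in fibroblast-like cells of normal 1, 78 came from that cluster. CHI3L1 was also highest in the COCH-led cluster, at 12.7 and 27.9 CPM in the normal samples against 563 and 148 in the injured ones, and lowest among injured cells in the LVRN-led cluster, at 19.0 and 14.7 CPM.

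ASPN showed its widest gap in the COCH-led cluster, at 14.1 and 24.1 CPM in normal 1 and 2 and 89.3 and 298 CPM in injured 1 and 2. In the EREG-led cluster its groups overlapped, at 21.9, 45.5, 44.4 and 89.2 CPM.

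FNDC1 went in opposite directions in different clusters, which its class sum did not show. In the COCH-led cluster it had 7.75 and 15.8 CPM in the normal samples and 44.4 and 97.4 CPM in the injured ones. In the EREG-led cluster it had 11.9 and 25.6 CPM in the normal samples and 1.19 and 3.53 CPM in the injured ones. In the PTPRQ-led cluster the values were 13.5 and 38.9 CPM against 3.01 and 1.23 CPM, resting on 20 and 297 UMIs in the normal and 4 and 3 UMIs in the injured samples. The groups did not overlap in any of these 3 clusters, and the difference between the clusters was not tested.

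ABI3BP had no cluster in which the injured samples lay below the normal ones. It was lowest in the PTPRQ-led cluster, at 12.1 and 7.99 CPM in normal 1 and 2 against 179 and 85.4 CPM in injured 1 and 2. In the MFAP5-led and LVRN-led clusters, where it was high in every sample, the groups overlapped (586, 319, 631 and 357 CPM in the former). HAPLN1 in injured fibroblasts was highest in the EREG-led cluster (3.98, 5.57, 16.7 and 13.9 CPM) and next in the PTPRQ-led cluster (2.70, 7.46, 8.29 and 10.7 CPM), and injured samples lay above normal ones in both.

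In endothelial-like cells, 5 of the 9 members passed the filter on low counts and 4 (COCH, ASPN, ITGBL1 and MOXD1) did not, and a gene this low passes mostly through the group where it is high. T cell-like cells, which are not known to make these matrix proteins, served as the background level. ITGBL1 had at most 1.30 CPM in endothelium and 1.93 CPM in T cells, MOXD1 at most 0.976 against 3.86 CPM, and COCH at most 1.58 against 2.92 CPM. ASPN reached 0.910 CPM in endothelium and 0.731 CPM in T cells. CHI3L1 had 0.101, 0.164, 3.89 and 2.77 CPM in endothelium of normal 1, normal 2, injured 1 and injured 2, and 3.86, 4.44, 8.40 and 3.22 CPM in T cells. These endothelial values lie at or near the background level and are not read as expression. That background is coarse, since 3 UMIs equal 11.6 CPM in the smallest T cell sum and 0.488 CPM in the smallest endothelial one. CHI3L1 in T cells of normal 1 and 2 rested on 1 and 2 UMIs. The median depth was 3054 to 3925 UMIs per T cell across samples and 4691 to 6430.5 per endothelial-like cell.

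HAPLN1 did not overlap between the groups in endothelium. It had 0.809 CPM in normal 1 (8 UMIs), 1.07 in normal 2 (13 UMIs), 25.1 in injured 1 (206 UMIs) and 26.7 in injured 2 (164 UMIs), and 0 UMIs in T cells of all 4 samples. The difference was 1.71 ± 0.04 on the log2(CPM + 10) scale (SE, n = 2 per group). Set against decorin (DCN), a proteoglycan typical of fibroblasts, there were 0.161 HAPLN1 UMIs per 1000 DCN UMIs in fibroblasts of injured 1 and 0.183 in injured 2, and 272 and 135 per 1000 in endothelium of the same samples. The part of fibroblast RNA in the endothelial values was not tested.

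Among the endothelial clusters with at least 20 cells in every sample, HAPLN1 of the injured samples was highest in the one led by ESM1 and containing KDR. It stood there at 0.265 and 1.43 CPM in normal 1 and 2 and at 52.2 and 44.7 CPM in injured 1 and 2. In the SELP-led cluster, which also carries SELE and VWF, it stood at 0.927, 0.851, 10.7 and 21.1 CPM. In the ATP2A3-led cluster it had 1 and 0 UMIs in the normal samples and 9 and 4 in the injured ones. The CCL21-led cluster, whose fixed markers are those of lymphatic endothelium, had 0 and 1 HAPLN1 UMIs in its 28 and 52 injured cells. HAPLN1 UMIs of endothelial-like cells thus lay outside the lymphatic-like cluster in nearly all cases.

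**Figure D3:**
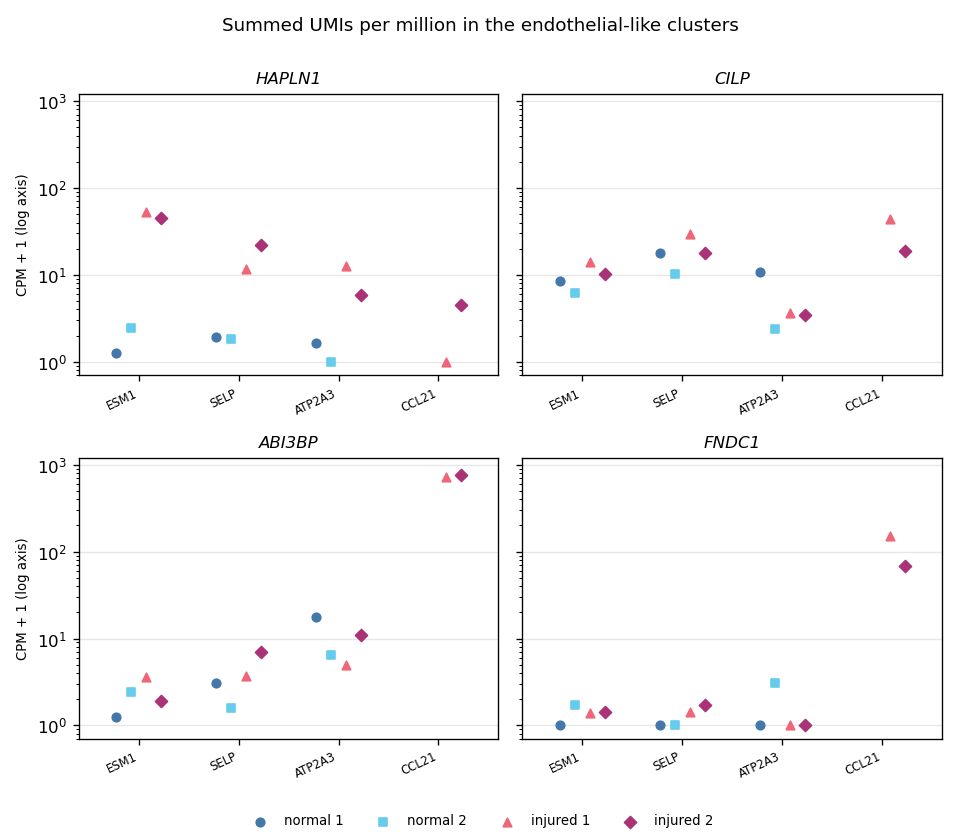
CPM plus 1 on a log axis for HAPLN1, CILP, ABI3BP and FNDC1 in 4 endothelial-like clusters named by their leading genes, with 1 point per sample having at least 20 cells. The CCL21-led lymphatic-like cluster has points for the injured samples only, and it holds most endothelial ABI3BP and FNDC1 but almost no HAPLN1.

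ABI3BP and FNDC1 showed the other pattern. Over all endothelial-like cells ABI3BP stood at 3.64, 3.53, 16.9 and 38.9 CPM in normal 1, normal 2, injured 1 and injured 2, and FNDC1 at 0, 1.72, 3.29 and 3.58 CPM. Most of those UMIs lay in the CCL21-led cluster, which held 0 cells of normal 1, 9 of normal 2, 28 of injured 1 and 52 of injured 2. Of the ABI3BP UMIs in endothelium, 117 of 139 in injured 1 and 212 of 239 in injured 2 came from it, as did 24 of 27 and 19 of 22 FNDC1 UMIs. Its ABI3BP level was 727 CPM in injured 1 and 753 in injured 2. The 9 cells of normal 2 already held 23 ABI3BP and 13 FNDC1 UMIs.

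Leaving out the lymphatic-like cluster, a choice made after seeing the data, brought the log2(CPM + 10) difference of ABI3BP from 1.42 to 0.11 and that of FNDC1 from 0.31 to 0.02. The number of members with both injured samples above both normal samples fell from 7 to 4 of 9 in endothelial-like cells. The 7 included COCH, CHI3L1 and ITGBL1 near the background level, and CILP, whose normal 1 and injured 2 were close to level. The share of all genes tested with this order is given only with that cluster kept (24.1%), so nothing is read from these counts. The summed level of the 4 lymphatic markers in endothelium moved with the groups in the same way (71.3, 196, 1580 and 1800 CPM in normal 1, normal 2, injured 1 and injured 2). The summed level of 6 fibroblast markers in endothelium did not follow the groups (282, 949, 565 and 1220 CPM).

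CILP was present in endothelium of every sample, at 11.8 CPM in normal 1, 5.91 in normal 2, 21.1 in injured 1 and 11.9 in injured 2. Normal 1 and injured 2 were close to level, and the difference was 0.48 ± 0.34 (log2(CPM + 10), SE, n = 2 per group). In T cells it was at 0 in normal 1, normal 2 and injured 1 and at 0.643 CPM in injured 2. Among the 3 largest endothelial clusters it was highest in the SELP-led one (16.7, 9.37, 28.2 and 16.6 CPM), where the groups overlapped. Over the whole class, endothelium of the normal samples had a higher CILP level than normal fibroblasts, which held 1.56 and 3.29 CPM. In the injured samples the fibroblasts had more. The order did not hold for every cluster. MFAP5-led and COCH-led fibroblasts of normal 2 had 10.7 and 8.32 CPM, above the endothelium of that sample. In normal 1 they had 1.32 and 2.82 CPM, below its endothelium.

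Of the members, 6 passed the filter in smooth muscle and pericyte-like cells. COCH had 8.79 and 9.14 CPM in normal 1 and 2 and 113 and 34.7 CPM in injured 1 and 2, again with injured 1 the highest. The IBSP-led cluster, which also carries the pericyte genes RGS5 and ABCC9, held most of its UMIs (15.9, 16.2, 141 and 42.4 CPM). That cluster also held 74.9% and 71.2% of the cells of the class in injured 1 and 2. The small ACTG2-led smooth muscle cluster stood at 76.3 and 54.0 CPM in those samples, from 12 and 14 UMIs, with 0 UMIs in normal 1 and normal 2. Per 1000 DCN UMIs, IBSP-led cells had 103 and 29.8 COCH UMIs in injured 1 and 2. ACTG2-led cells had 10.7 and 5.88, and fibroblasts of those samples 9.77 and 4.28. The part of fibroblast RNA in these COCH values was not tested.

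ASPN was higher in smooth muscle and pericyte-like cells than in fibroblasts in 3 of 4 samples, injured 2 being the exception, and it did not follow the fibroblast direction there. It stood at 233 CPM in normal 1, 89.5 in normal 2, 82.3 in injured 1 and 90.5 in injured 2, so 3 samples were level and normal 1 stood apart. In the IBSP-led cluster both injured samples lay below both normal samples (265 and 115 CPM against 78.4 and 91.7 CPM). In the ACTG2-led smooth muscle cluster ASPN stood at 185 and 143 CPM in injured 1 and 2 and at 71.0 CPM in normal 2. Normal 1 had too few cells there to give a level, but its 12 cells held 21 ASPN UMIs. The 55 cells of normal 2 held 25, the 23 of injured 1 held 29 and the 30 of injured 2 held 37. No direction between the groups is read there.

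**Figure D4:**
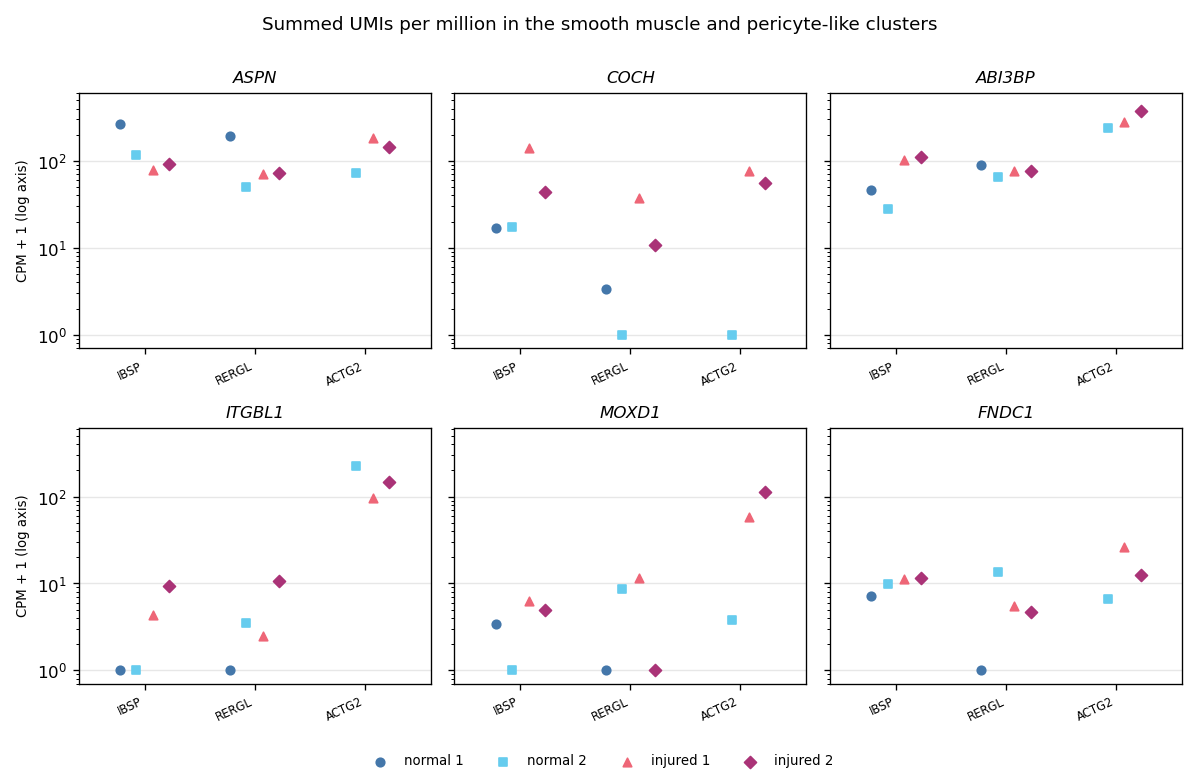
CPM plus 1 on a log axis for 6 members in the IBSP-led pericyte-like cluster, the RERGL-led cluster and the ACTG2-led smooth muscle cluster, with 1 point per sample having at least 20 cells. ASPN lies below the normal samples in injured IBSP-led cells, and ITGBL1 is highest in ACTG2-led cells of the 3 samples with a level there, and MOXD1 in those of both injured samples.

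ABI3BP in smooth muscle and pericyte-like cells stood at 74.4 and 66.2 CPM in the normal samples and 105 and 124 CPM in the injured ones. Its gap lay in the IBSP-led cluster (45.2 and 26.97 against 101 and 111 CPM) and not in the RERGL-led one, where the groups overlapped. MOXD1 stood at 1.76, 2.67, 9.34 and 12.0 CPM over the class. Its ratio there was 6.04 and 5.95 UMIs per 1000 DCN UMIs in injured 1 and 2, near the 5.79 and 7.12 per 1000 of fibroblasts in those samples, and the part of fibroblast RNA in these MOXD1 values was not tested. In ACTG2-led cells it had 2.84 CPM in normal 2, from 1 UMI, against 57.3 and 112 CPM in injured 1 and 2. ITGBL1 was high in ACTG2-led cells of every sample that had enough of them, at 222 CPM in normal 2, 95.4 in injured 1 and 147 in injured 2. Of the 80 ITGBL1 UMIs in this class of normal 2, 78 came from those cells. FNDC1 overlapped between groups, at 2.93, 9.52, 9.69 and 8.76 CPM.

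Outside the stroma, CHI3L1 and MOXD1 had sources of their own. CHI3L1 in neutrophil-like cells was high in all samples, at 1079 and 1459 CPM in normal 1 and 2 and 1519 and 1165 CPM in injured 1 and 2, and the groups overlapped. In macrophage-like cells it had 0 UMIs in normal 1, 4 in normal 2 (5.51 CPM), 1272 in injured 1 (325 CPM) and 480 in injured 2 (147 CPM). The groups were thus apart in macrophage-like cells and overlapped in neutrophil-like cells. The normal samples held few of either class, with 25 and 31 neutrophil-like and 112 and 104 macrophage-like cells.

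Neutrophil markers moved with CHI3L1 in fibroblast-like cells, where 4 of them summed to 13.3, 27.4, 122 and 44.0 CPM in normal 1, normal 2, injured 1 and injured 2. In neutrophil-like cells CHI3L1 had 10.9 to 17.7 CPM per 1000 CPM of these markers. That class joined a SERPINB2-led cluster of 236 cells and an S100A8-led cluster of 214, with 1352 and 1324 CPM of CHI3L1 over all samples. The SERPINB2-led cluster had a marker score of 2.475 for neutrophils and 2.028 for macrophages, so its name is less certain. The ratio was not computed for each cluster. In fibroblasts of injured 1 and 2 the ratio was 1850 and 1250 per 1000, against 365 and 289 per 1000 in those of normal 1 and 2. In endothelium the ratio was 0.350 and 0.369 per 1000 in normal 1 and 2 and 8.15 and 12.2 per 1000 in injured 1 and 2, while the 4 markers summed to 289, 445, 478 and 226 CPM. The part of neutrophil RNA in the CHI3L1 values was not tested.

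**Figure D5:**
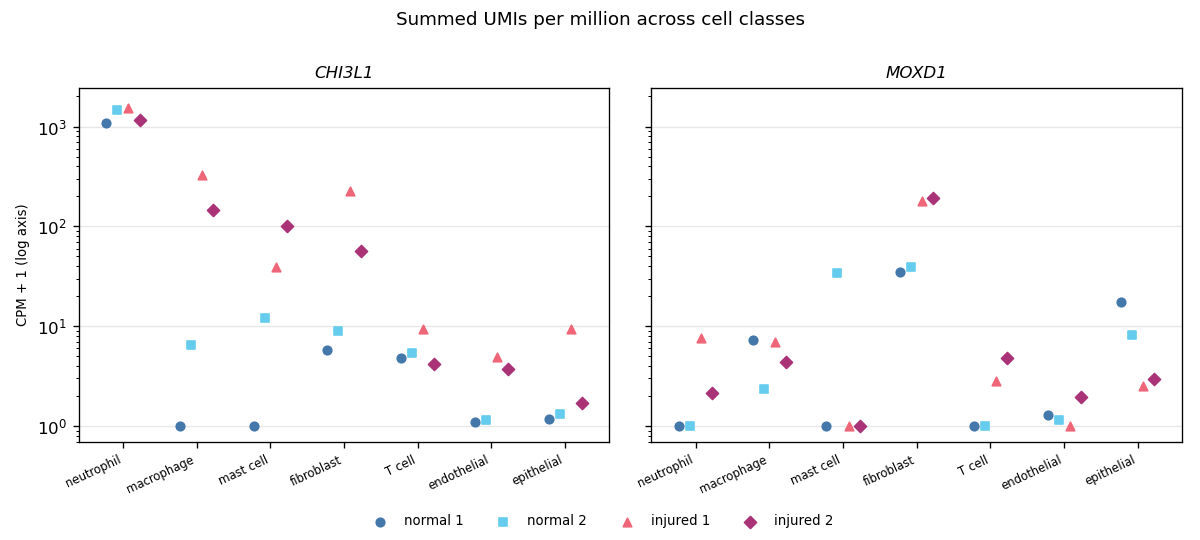
CPM plus 1 on a log axis for CHI3L1 and MOXD1 in 7 cell classes, with 1 point per sample. CHI3L1 is near 1000 CPM or above in neutrophil-like cells of all samples and separates the groups in macrophages and fibroblasts. MOXD1 is lower in injured than in normal epithelial-like cells.

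MOXD1 in epithelial-like cells went the other way from fibroblasts. It had 16.7 CPM in normal 1 (88 UMIs) and 7.23 in normal 2 (22 UMIs), against 1.52 in injured 1 (11 UMIs) and 1.96 in injured 2 (11 UMIs). The injured values lie at the level of T cells (1.83 and 3.86 CPM). Over all samples MOXD1 stood at 9.92 CPM in the SERPINB5-led epithelial-like cluster, which carries KRT5, and at 1.94 CPM in the SPP1-led one. The SERPINB5-led cluster held 193 of 441 epithelial-like cells in normal 1 and 110 of 171 in normal 2. It held 194 of 566 in injured 1 and 141 of 354 in injured 2. The part of this changed makeup in the MOXD1 difference was not tested. Glial-like cells carried MOXD1 as well, at 221 CPM in injured 1 and 123 CPM in injured 2, from 35 and 28 UMIs, and at 31.3 CPM in normal 1, from 2 UMIs. FNDC1 in glial-like cells was level at 94.0, 107 and 96.4 CPM in normal 1, injured 1 and injured 2. Normal 2 had only 7 glial-like cells and no level is given for it.

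Over the 37 sums of cells by class and sample, the genes whose log2(CPM + 10) pattern was most like each member were found by Pearson's r, as a description that rests mainly on differences between cell classes. For ITGBL1 they were MFAP5 and STEAP2 (both r = 0.945), for MOXD1 TENM3 (0.896) and SCRN1 (0.876), and for CILP FBLN2 (0.843) and DCHS1 (0.839). COCH was most like CHRDL2 (0.920), a secreted BMP antagonist, and STEAP2 (0.844). ASPN was most like PTPRD (0.952) and NEXN (0.945), ABI3BP like NID1 (0.944) and GPX8 (0.942), and FNDC1 like NCAM1 (0.971) and PDZRN3 (0.970). CHI3L1 was most like the myeloid genes MARCO (0.863) and S100A8 (0.861). HAPLN1 was most like MMRN1 (0.844) and PROX1 (0.820), both markers of lymphatic endothelium, although HAPLN1 itself was almost absent from the lymphatic-like cluster.

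The other matrix genes give the setting of the members. Of 17 collagens and collagen-processing genes tested in fibroblast-like cells, 0 were called by edgeR, 11 had both injured samples above both normal samples and 3 had both below. Over all genes tested in these cells 16% lay above and 27.7% below, which is the base for each fibroblast list. The median log2 fold change of the collagen list was 0.71 against 0.00 over all genes tested. Examples of this and the following lists are named for the size of their difference, after their values were seen. PLOD2, which hydroxylates collagen lysines for cross-links, stood at 31.7 and 55.6 CPM in the normal and 134 and 140 CPM in the injured samples. COL12A1, a fibril-associated collagen, went the other way in the class sum, at 462 and 918 against 135 and 221 CPM. It is among the leading genes of the EREG-led and PTPRQ-led clusters. The PTPRQ-led cluster took 21.5% and 31.7% of fibroblast-like cells in normal 1 and 2 and 8.52% and 12.5% in injured 1 and 2. The part of this changed makeup in the COL12A1 difference was not tested.

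Among 9 genes of hyaluronan and its binders tested in fibroblasts, 0 were called, 3 lay above and 1 below (all genes: 16% and 27.7%), and the median was 0.73. TNFAIP6, which transfers heavy chains onto hyaluronan, had 120 and 152 CPM in the normal and 1212 and 730 CPM in the injured samples. VCAN, the large hyaluronan-binding proteoglycan that link protein secures, had 85.9 and 107 against 323 and 293 CPM.

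Of 12 elastic fibre and glycoprotein genes tested in fibroblasts, 0 were called, 8 lay above and 1 below, with a median of 0.91. FBN2, the fibrillin of developing tissue, stood at 2.19 and 4.96 CPM against 13.9 and 29.6 CPM. Of 10 small leucine-rich proteoglycans, 0 were called, 4 lay above and 3 below (all genes: 16% and 27.7%), with a median of 0.34. OMD, osteomodulin, stood at 34.4 and 77.2 CPM in the normal and 23.9 and 11.4 CPM in the injured samples, opposite to ASPN of the same family.

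For the remaining lists the medians ran from -0.35 to 0.08. The 11 matricellular genes had 2 above and 2 below with a median of 0.08, and the 16 TGF-beta ligands, receptors and targets had 3 above and 5 below with a median of -0.12. In the latter, TGFB3 stood at 9.84 and 8.12 CPM in the normal and 49.9 and 33.2 CPM in the injured samples. The 7 IGF axis genes had 2 above and 2 below (median -0.08), the 9 matrix integrins 1 above and 2 below (median -0.17), and the 4 copper monooxygenases and relatives 1 above and 2 below (median -0.35). None of these genes was called by edgeR. Over all genes in fibroblast-like cells 16% had both injured samples above both normal samples and 27.7% had both below. Nothing is read from list counts near these shares.

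In endothelial-like cells the lists again held 0 genes called by edgeR, and over all genes tested there 24.1% had both injured samples above and 12.9% both below, with a median log2 fold change of -0.01. The 8 elastic fibre and glycoprotein genes had 5 above and 1 below with a median of 0.70, and fibronectin (FN1) stood at 146 and 248 CPM in the normal and 591 and 555 CPM in the injured samples. The 9 hyaluronan genes had 4 above and 1 below with a median of 0.02. The 15 collagen genes had 2 above and 2 below with a median of 0.12.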

How the data were processed

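Single-cell suspensions of collagenase-digested bladder mucosa (2 normal, 2 injured samples) were captured with a 3′ droplet kit. The authors aligned reads with Cell Ranger, per the labels, and deposited raw UMI counts per gene and cell barcode; the genome build is not given in the sources used here. Both the members and all gene lists were chosen with earlier results of these data known. Cells with at least 500 UMIs, 200 genes and at most 15% mitochondrial UMIs were kept (21945). Doublets were scored with Scrublet (0.255% to 2.60% called per library) and not removed in the main analysis, except that clusters made mostly of high scores were left unnamed. Seurat 5.3.0 (CCA integration, 2000 variable genes, 30 components, resolution 0.8) gave 28 clusters, each named from fixed markers when at least 3 were raised. A cluster was left unnamed when the best class led the next by under 0.1, a rule made after seeing the data, and 4 clusters stayed unnamed. UMIs were summed per class and sample where at least 20 cells were present. edgeR 4.0.16 (filterByExpr, TMM, quasi-likelihood test, Benjamini-Hochberg) and DESeq2 1.42.0 were run in R 4.3.3 over all genes. Only the edgeR test was tried on simulated data. Members were described on log2(CPM + 10). The study calls the samples of a group biological replicates, but the labels do not name separate animals, so p-values measure only the spread between these samples. The text names the 9 members, the 2 genes most like each, and list genes of at least 20 CPM whose groups did not overlap, because no list gene passed the test. Precision covers counting error only: 3 UMIs is the count a reading of 0 allows. Gene, protein and promoter sequences were not used here. Within 2-sample groups no outlier could be assessed.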

Additional observations from a re-analysis of the deposited data

Results flagged for a closer look

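Some members differed in opposite directions in different cells, with both injured samples above both normal samples in one and below in another. None of these differences between cell types was tested. MOXD1 differed by -0.87 (log2(CPM + 10), injured minus normal) in epithelial-like cells, against positive differences in fibroblast-like and in smooth muscle and pericyte-like cells. In the latter, MOXD1 of the injured samples had 6.04 and 5.95 UMIs per 1000 DCN UMIs, near the 5.79 and 7.12 per 1000 of fibroblasts, and the part of fibroblast RNA was not tested. The epithelial-like difference was not split by cluster, although the share of the SERPINB5-led cluster differed between samples. ASPN differed by -0.97 in the IBSP-led pericyte-like cluster, where normal 1 (265 CPM) stood far above normal 2 (115 CPM), against positive differences in 4 fibroblast-like clusters. ASPN also differed by -0.10 in endothelial-like cells, where it had 9, 11, 0 and 2 UMIs in normal 1, normal 2, injured 1 and injured 2, while fibroblast-like and epithelial-like cells differed the other way. These endothelial values lie near the T cell level and are not read as a direction of ASPN in endothelium. FNDC1 differed by -1.18 in the EREG-led and by -1.49 in the PTPRQ-led fibroblast-like cluster, against a higher level in the COCH-led cluster.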

How the results depend on the processing

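The number of genes called changed with the test, the filter and the samples. Against 0 by edgeR in fibroblast-like, endothelial-like and smooth muscle and pericyte-like cells, the DESeq2 Wald test called 273, 57 and 72. Testing genes with at least 1 UMI called 584 in fibroblast-like and 173 in smooth muscle and pericyte-like cells. A mitochondrial limit of 10% called 15 in fibroblast-like cells, and leaving out the lymphatic-like cluster called 2 in endothelial-like cells. Leaving out 1 sample at a time gave 10 to 42 calls in fibroblast-like cells, 0 to 14 in endothelial-like cells (14 without normal 2, 2 without injured 2) and 2 to 817 in smooth muscle and pericyte-like cells (272 without normal 1, 817 without normal 2). In fibroblast-like cells these were 14 without normal 1, 35 without normal 2, 10 without injured 1 and 42 without injured 2, and in smooth muscle and pericyte-like cells 2 and 13 without injured 1 and injured 2. The lone sample of a group is then assumed to vary like the other group. The labels share only a replicate number between groups, which is no pairing. A fit with the replicate block called 139, 96 and 3 genes in the 3 classes, and samples of the same number had deviations correlated at 0.228, 0.152 and 0.066. The cause of these shifts was not tested. DESeq2 size factors, resolution 0.3, no integration and leaving out the highest 5% of doublet scores kept 0 calls by edgeR. Members with both injured above both normal samples were counted under every alternative run. They numbered 7 to 8 in fibroblast-like cells and 3 to 4 in smooth muscle and pericyte-like cells. In endothelial-like cells they numbered 7, except for 4 without the lymphatic-like cluster. The share of all genes with this order is given for the main setting only, so nothing is read from these counts. Of 315 alternative values of single members, 260 moved by less than the spread between replicates, 55 by more, most with another pseudocount, and 0 reversed a member whose groups did not overlap. Depth limits members under about 1 CPM, which are a few UMIs per sample.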

Other observations

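The nearest protein-coding neighbours of some members in the RefSeq rabbit assembly mOryCun1.1 were also measured, and their levels are given as values. ASPN lies between ECM2 and OMD, followed by OGN, all of the same proteoglycan family. In fibroblast-like cells of normal 1, normal 2, injured 1 and injured 2, ECM2 stood at 157, 109, 174 and 132 CPM, and OGN at 3970, 4430, 5500 and 4400 CPM, so that the groups overlapped for both. OMD had both injured samples below both normal samples and ASPN both above. HAPLN1 lies between VCAN and EDIL3. In endothelial-like cells, where HAPLN1 differed most, VCAN stood at 0.606, 0.903, 1.70 and 3.74 CPM and EDIL3 at 0.910, 2.46, 0.730 and 3.09 CPM. MOXD1 is followed by CCN2, a matricellular gene, which stood at 43.7, 166, 194 and 512 CPM in fibroblast-like cells.

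CHI3L1 was also counted in mast cell-like cells, with 0 and 1 UMIs in normal 1 and 2 and 10 and 26 UMIs in injured 1 and 2. These came from 31, 28, 88 and 81 cells. Only 3 cells of injured 1 and 6 of injured 2 held a CHI3L1 UMI, and 1 cell held 7 UMIs in injured 1 and 20 in injured 2. Neither expression in mast cells nor a direction between the groups is read from these counts.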
